A study of Arabidopsis thaliana with 8 samples.

Results

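Seedlings of the Arabidopsis mutant dez were compared with wild-type seedlings while both grew on 100 µM zinc, so that genotype was the only labelled difference. The comparison used the 2 arrays of dez and the 2 arrays of wild type on high zinc, 4 of the 8 arrays of the study, and covered 13648 probe sets. These were the upper 60% by mean log2 intensity over all 8 arrays, with the control probe sets left out. The other 4 arrays held the same genotypes on control medium with 1 µM zinc. Whole seedlings were 7 days old and had been kept in the dark apart from a short light exposure of the seeds, on plates of a modified Hoagland medium. Each array read the RNA of about 45 pooled seedlings, called a biological replicate in the labels, so each group had n = 2. The array was the Affymetrix ATH1, on which each probe set gives 1 intensity, and differences are given as dez minus wild type on the scale of log2(intensity + 16), which understates the change of dim genes. The number of arrays limits the precision of all values.

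Zinc is a micronutrient that plants take up through root transport routes that in part also carry iron, and an excess of it can disturb iron supply. A seedling in the dark follows the etiolated programme, in which the hypocotyl elongates, reserves are consumed and plastids wait as etioplasts with part of the pigment pathway in place. The gene affected in dez is known as TRICHOME BIREFRINGENCE (AT5G06700, TBR), the founding member of a family linked to the acetylation of wall polysaccharides. The kind of lesion was not given in the sources used here. On high zinc the TBR probe set read 145 and 128 in wild type and 150 and 138 in dez, a difference of 0.07 ± 0.12 (SE, limma adjusted p = 0.661), so it does not check the genotype labels. Most markers chosen to check the tissue could not be matched to a named probe set. None was matched for etiolated seedlings or light-grown leaf, so growth in the dark was not checked. Of 13 root markers only PYK10, a beta-glucosidase of ER bodies, was matched. It averaged 3117 in wild type and 3046 in dez (limma adjusted p = 0.847). The pollen gene SHT averaged 5.27 and 6.05, and the guard-cell genes FMA, SPCH and MUTE did not exceed 24.04 on any array. The root hair expansins EXPA7 and EXPA18 averaged 11.8 and 12.9 in wild type and 21.2 and 29.0 in dez, below the filter and not tested. The seed oil-body gene OLEO3 was lower in dez, at 98.9 and 72.04 against 27.3 and 24.7 (difference -1.26 ± 0.22, limma adjusted p = 0.00103). In whole seedlings fewer cells of a type and less RNA per cell cannot be told apart.

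The genotype difference on high zinc was broad. Of the 13648 probe sets, 5846 passed the threshold of 0.05 on limma's adjusted p (42.8%), 3026 higher in dez (22.2%) and 2820 lower (20.7%). At least 2-fold differences were found for 1162 probe sets (8.51%), 557 higher (4.08%) and 605 lower (4.43%). The difference reached 4-fold in 93 probe sets that were higher (0.681%) and 49 that were lower (0.359%). It reached 8-fold in 24 that were higher (0.176%) and 13 that were lower (0.0953%). The arrays of the groups did not overlap at 9783 probe sets (71.7%), beside 7865 (57.6%) for the same genotypes on control medium. On control medium the same genotypes differed at 1308 probe sets (9.58%), 573 higher (4.2%) and 735 lower (5.39%), and at 209 of them by at least 2-fold (1.53%). These arrays are separate from the high-zinc ones. Of the probe sets higher in dez on high zinc, 316 were also higher on control medium, which is 10.4% of the high-zinc list and 55.1% of the control list. Of those lower on high zinc, 530 were also lower on control medium, or 18.8% and 72.1% of the respective lists. The called probe sets had a median of 0.58 where higher and -0.63 where lower on high zinc, beside medians of 0.16 and -0.12 for the same probe sets on control medium. Whether the difference itself changed with zinc was tested by limma's genotype by zinc interaction, which 2653 probe sets passed (19.4%), 1210 positive (8.87%) and 1443 negative (10.6%).

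**Figure D1:**
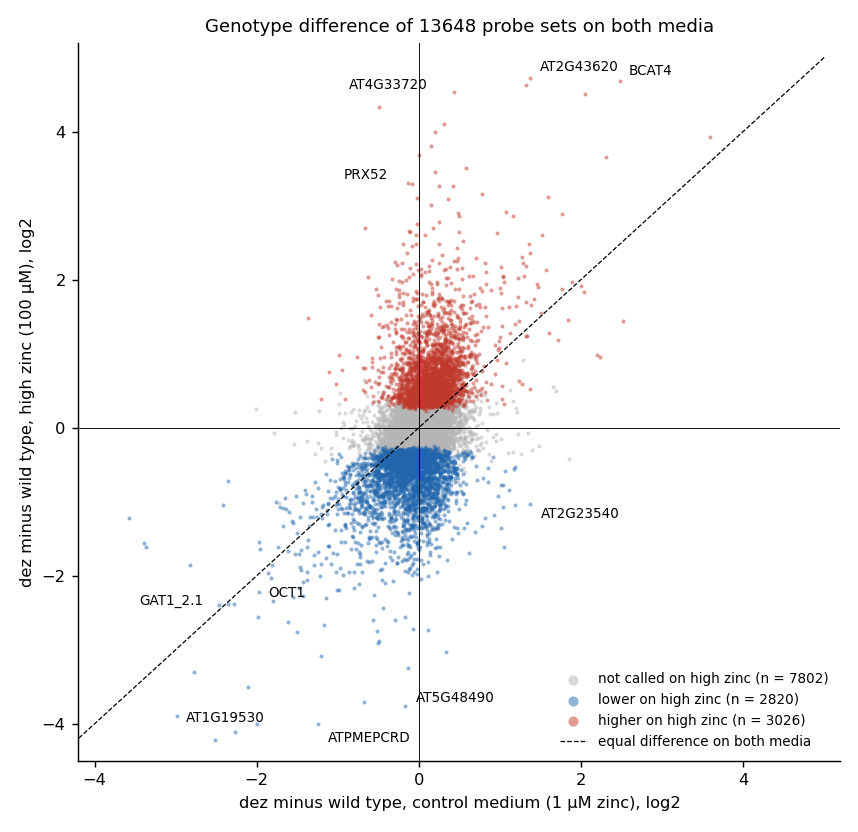
Difference between dez and wild type (log2 scale) on control medium, x axis, and on high zinc, y axis, for each of the 13648 probe sets, coloured by the call on high zinc. Points on the dashed line have an equal difference on both media; BCAT4 and OCT1 lie away from zero on both axes, while PRX52 and AT5G48490 lie near zero on the x axis.

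Control probe sets differed between the groups as well. The 25S ribosomal RNA control read log2 values of 6.603 and 6.51 in wild type and 8.79 and 10.48 in dez on high zinc, so the groups did not overlap. Actin and GAPDH, which have control probe sets at both transcript ends as a measure of RNA and labelling quality, gave a mean 3' minus 5' difference of 1.67 and 1.51 in wild type and 1.21 and 1.19 in dez. The poly-A spike controls read 7.30 and 7.86 in wild type and 6.94 and 6.61 in dez. Their part in the results below was not tested, beyond fitting the 3'-5' difference as a covariate and scaling each array to the spikes. With the covariate 3445 probe sets passed. Scaled to the spikes, the median of all tested probe sets moved from 0.02 to 0.68, 7766 probe sets passed and 96.7% of them were higher in dez, against 51.8% as deposited. These were 7513 higher and 253 lower of the 13648 tested. List counts and medians under spike scaling below are to be read beside these counts and the median of 0.68. Of the 191 genes named by rule that passed, under spike scaling 45 kept their sign but were no longer called and 21 turned sign, all of them lower in dez as deposited. With the covariate 30 lost the call. Directions below are therefore relative to the other transcripts.

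**Figure D2:**
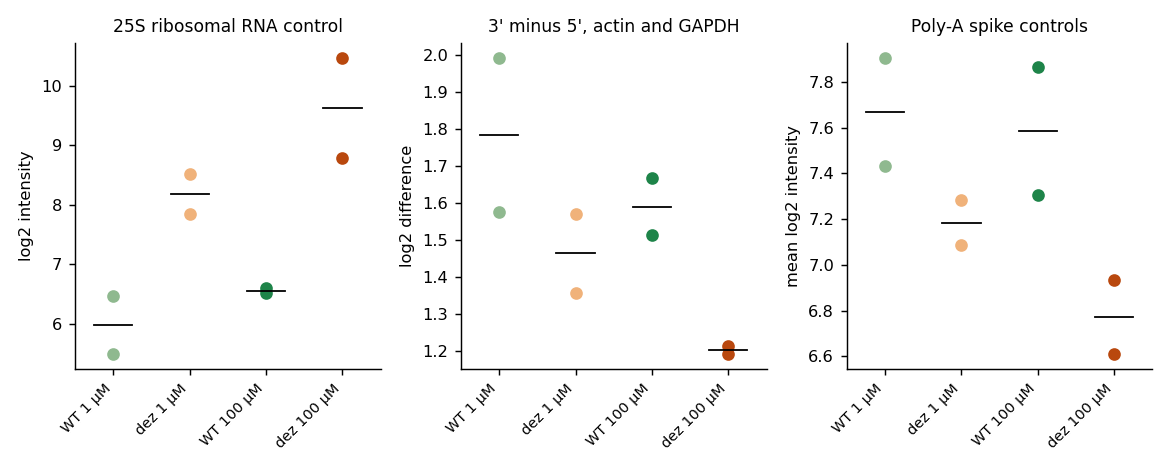
Log2 intensity of the 25S ribosomal RNA control, 3' minus 5' difference (log2) of actin and GAPDH, and mean log2 intensity of the poly-A spike controls, by group. Points are arrays (n = 2 per group) and bars are means; the y axes do not start at 0. On high zinc the dez arrays lie above wild type for 25S and below it for the other controls.

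Among single genes several of the largest rises in dez started from dim signals. AT2G43620 read 67.6 and 68.5 in wild type and 1944 and 2492 in dez on high zinc, a difference of 4.72 ± 0.13 (SE, limma adjusted p = 1.64e-08). BCAT4, the aminotransferase at the entry of methionine into aliphatic glucosinolate synthesis, read 29.9 and 29.0 in wild type and 1146 and 1165 in dez, a difference of 4.69 ± 0.12. Both were already higher in dez on control medium, by 1.38 and 2.48, where BCAT4 read 12.4 and 8.53 in wild type and 121 and 142 in dez. AT4G33720 and AT4G12500 were dim in the other 3 groups, with no array above 24.95, and read 675 and 571 (AT4G33720) and 378 and 395 (AT4G12500) in dez on high zinc. PRX52, a class III peroxidase, read 7.73 and 6.65 in wild type and 149 and 294 in dez, a difference of 3.29 ± 0.22 (limma adjusted p = 2.78e-06), and on control medium no array exceeded 9.14. AT4G22470, AT5G55050 and AT4G01700 differed by 3.80, 3.68 and 3.51. The other 7 of the 15 largest rises of named genes lay between 2.92 and 4.63, and the brightest of them, AT2G38870, read 477 and 373 in wild type and 3194 and 3397 in dez. None of these 15 overlapped between the genotypes, as the naming rule required.

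The largest falls started from bright signals. ATPMEPCRD, a pectin methylesterase, read 861 and 826 in wild type and 38.4 and 36.5 in dez on high zinc, a difference of -4.01 ± 0.12 (limma adjusted p = 1.78e-08). On control medium it read 1117 and 1249 in wild type and 442 and 538 in dez, a difference of -1.25. AT2G05540, AT1G19530 and AT3G15450 were likewise lower on both media, with differences of -4.0, -3.90 and -3.50 on high zinc and -2.00, -2.98 and -2.11 on control medium. The next genes differed on high zinc and less or not at all on control medium. AT5G48490 read 801 and 1304 in wild type and 52.8 and 69.2 in dez on high zinc, and 451 and 677 against 388 and 620 on control medium (adjusted p = 0.749). AT1G09750 fell from 586 and 712 in wild type to 65.3 and 63.99 in dez on high zinc, and its control-medium difference of 0.34 did not pass (adjusted p = 0.105). AT5G44440 read 1830 and 1566 against 126 and 105, a difference of -3.71. The plastid gene petL, of the cytochrome b6f complex, differed by -2.74 ± 0.36, and AT4G18970 and AT5G02160 by -2.59 each. The remaining falls among the 15 largest lay between -2.76 and -2.26, and none of the 15 lost its call under the processing alternatives that were run.

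**Figure D3:**
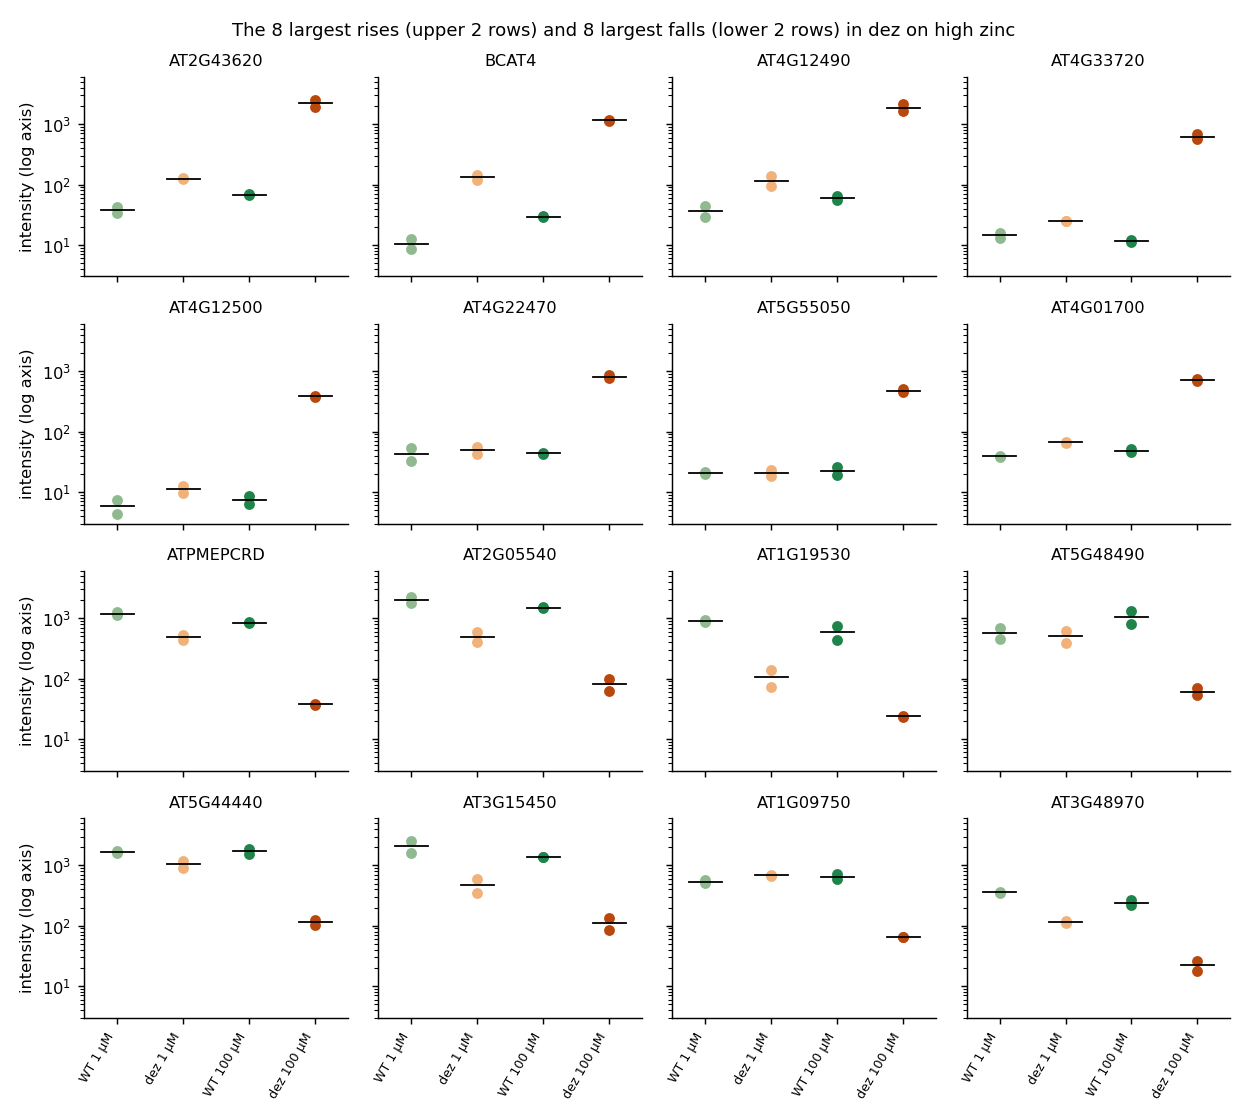
Deposited intensity (log axis) of the 8 largest rises and 8 largest falls of named genes in dez on high zinc, in all 4 groups (WT, wild type). Points are arrays (n = 2 per group) and bars are means. BCAT4 and AT1G19530 already differ between the genotypes on control medium, while AT4G12500, AT5G55050 and AT1G09750 differ on high zinc and overlap or lie close on control medium.

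Nuclear genes of photosynthesis were lower in dez on high zinc. Of 16 tested genes of the photosystems, their antennae and the NDH complex, 14 were lower, none was higher and the median was -1.04. Over the 7237 named genes tested the median was 0.02, and 20.4% were lower and 21.2% higher. These shares are the background for all list counts below. Lists were formed by symbol, so members of a class under other names were not counted. PSAN, a subunit of photosystem I, read 1016 and 1337 in wild type and 294 and 264 in dez (difference -2.00 ± 0.21, limma adjusted p = 3.76e-05). LHCB4.2, a minor antenna protein of photosystem II, read 1833 and 2265 against 673 and 582, and its paralog LHCB4.1 read 2387 and 2743 against 1104 and 949. The groups did not overlap for any of these, as held for every called probe set and for 71.7% of all tested ones. NdhS of the NDH complex and the soluble carrier CYTC6A differed by -1.53 and -1.62. The brightest of the list, PSAE-1 of photosystem I, read 2906 and 3105 in wild type and 1590 and 1453 in dez. None of the 16 passed on control medium, where the median was -0.05, and 12 had a negative interaction past its threshold. All 4 tested Calvin cycle and photorespiration genes were lower, with a median of -1.22. HPR, the peroxisomal hydroxypyruvate reductase, read 510 and 666 against 166 and 170, and PRK, phosphoribulokinase, 855 and 768 against 259 and 307. RCA, rubisco activase, and SBPASE differed by -0.98 and -0.83. Scaled to the poly-A spikes, the medians stayed negative at -0.30 and -0.43, and 4 of the 16 and 1 of the 4 genes were still called lower. Of the 16 genes 1 was then called higher.

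Chlorophyll and tetrapyrrole synthesis showed the same direction with 1 exception. Of 10 tested genes 7 were lower and 1 was higher, with a median of -0.99, and none passed on control medium, where the median was 0.24. PORB, which reduces protochlorophyllide in the light, read 2167 and 1925 in wild type and 706 and 562 in dez (difference -1.67 ± 0.14, limma adjusted p = 1.08e-05). CHLM, the methyltransferase that acts on magnesium protoporphyrin, read 896 and 1036 against 334 and 277. AT1G74470, geranylgeranyl reductase, which supplies the phytol tail, was among the 5 brightest named falls at 2942 and 3191 against 1655 and 1212. HEME1 and HEME2, uroporphyrinogen decarboxylases, were both lower, with differences of -1.04 and -1.11. HEMA2, a glutamyl-tRNA reductase at the entry of the pathway, was higher by 0.53 ± 0.16 (limma adjusted p = 0.0205), a call lost with the 3'-5' covariate and without dez replicate 1 or either wild-type array. Under spike scaling 2 genes were lower and 2 higher, with a median of -0.27. The light-signalling and greening list of 7 tested genes had 1 lower gene, LSH5, at -0.50, and a median of -0.08 that turned to 0.62 under spike scaling.

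Transcripts of the plastid genome were lower in part, to unequal extents among the complexes. The standard labelling primes on poly-A tails, which plastid transcripts seldom carry, so these values are a less direct measure. Of 63 tested plastid-encoded genes 32 were lower, 2 higher and 29 not called, with a median of -0.45 that turned to 0.26 under spike scaling. Of 15 genes of photosystem II 9 were lower, from psbB, a core antenna protein, at -1.79 and psbT at -1.62 to psbJ at -0.55. Of the 8 NDH genes 4 were lower, with ndhD at -1.01, and of the 5 photosystem I genes 3, with psaC at -1.14. The large subunit of rubisco, rbcL, differed by -1.05. None of the 5 ATP synthase genes passed, although atpH had a value of -0.86. Among ribosomal proteins 4 of 7 in the small subunit were lower, while in the large subunit 2 of 7 were higher and 1 lower. rpl36 read 478 and 252 in wild type and 755 and 721 in dez, a call lost with the 3'-5' covariate and without wild-type replicate 2 or either dez array. With the 3'-5' covariate 7 of the 63 genes were lower and none was higher. The bright genes psaB, petB and psbM, at -0.35, -0.41 and -0.71, lost their calls with it and turned to 0.46, 0.40 and 0.10 under spike scaling.

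Genes of sugar shortage and leucine breakdown were lower in dez on both media. Of 20 tested genes 13 were lower on high zinc and 1 higher, with a median of -0.58, and 12 were lower on control medium, with a median of -0.71. GAT1_2.1, a glutamine amidotransferase-like gene, read 184 and 146 in wild type and 22.7 and 14.4 in dez on high zinc (difference -2.39 ± 0.16, limma adjusted p = 2.33e-06). On control medium it read 266 and 272 against 41.1 and 30.4, a difference of -2.47, and the interaction of 0.08 did not pass (adjusted p = 0.851). QQS, a gene that affects starch content, and AKINBETA1, a subunit of the energy-sensing kinase SnRK1, differed by -1.85 and -1.39. All 5 tested SWEET sugar transporters were lower, with SWEET11, a sucrose exporter, at 605 and 621 against 310 and 275. IVD and the carboxylase subunits MCCA and MCCB, of successive steps of leucine breakdown, differed by -1.0, -0.90 and -0.49. APL3 (AT4G39210), a large subunit of ADP-glucose pyrophosphorylase of starch synthesis, stood apart at 28.4 and 13.8 in wild type and 75.6 and 162 in dez, a difference of 1.81 ± 0.26 (limma adjusted p = 0.000344). Of the 20 genes 2 had a positive interaction past its threshold and none a negative one. Under spike scaling the median turned to 0.09, beside 0.68 over all tested probe sets, and 2 genes were lower and 6 higher.

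The ATG8 family, whose members mark autophagosome membranes, lay in the same direction. Of 9 tested members 5 were lower and none higher, with a median of -0.44 that turned to 0.35 under spike scaling, and 5 were lower on control medium. ATG8E read 155 and 163 in wild type and 58.4 and 66.4 in dez on high zinc, a difference of -1.16 ± 0.11 (limma adjusted p = 1.95e-05). In the wider list of autophagy and proteolysis 14 of 53 genes were lower and 9 higher, with a median of 0.00. Among all named genes 20.4% were lower and 21.2% higher. GAMMA-VPE, a vacuolar processing enzyme, was lower at 612 and 625 against 284 and 265, while its relative BETA-VPE was higher at 27.9 and 34.1 against 67.04 and 94.7. Of 10 auxin genes 5 were lower and none higher, with a median of -0.39 that turned to 0.25 under spike scaling. On control medium 4 of the 10 were lower, and 2 had a negative interaction past its threshold. IAA29, an Aux/IAA repressor, read 108 and 91.7 against 27.3 and 18.4 and did not differ beyond the threshold on control medium. WAG2, a kinase of auxin transport, differed by -1.28 on high zinc and -0.58 on control medium.

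**Figure D4:**
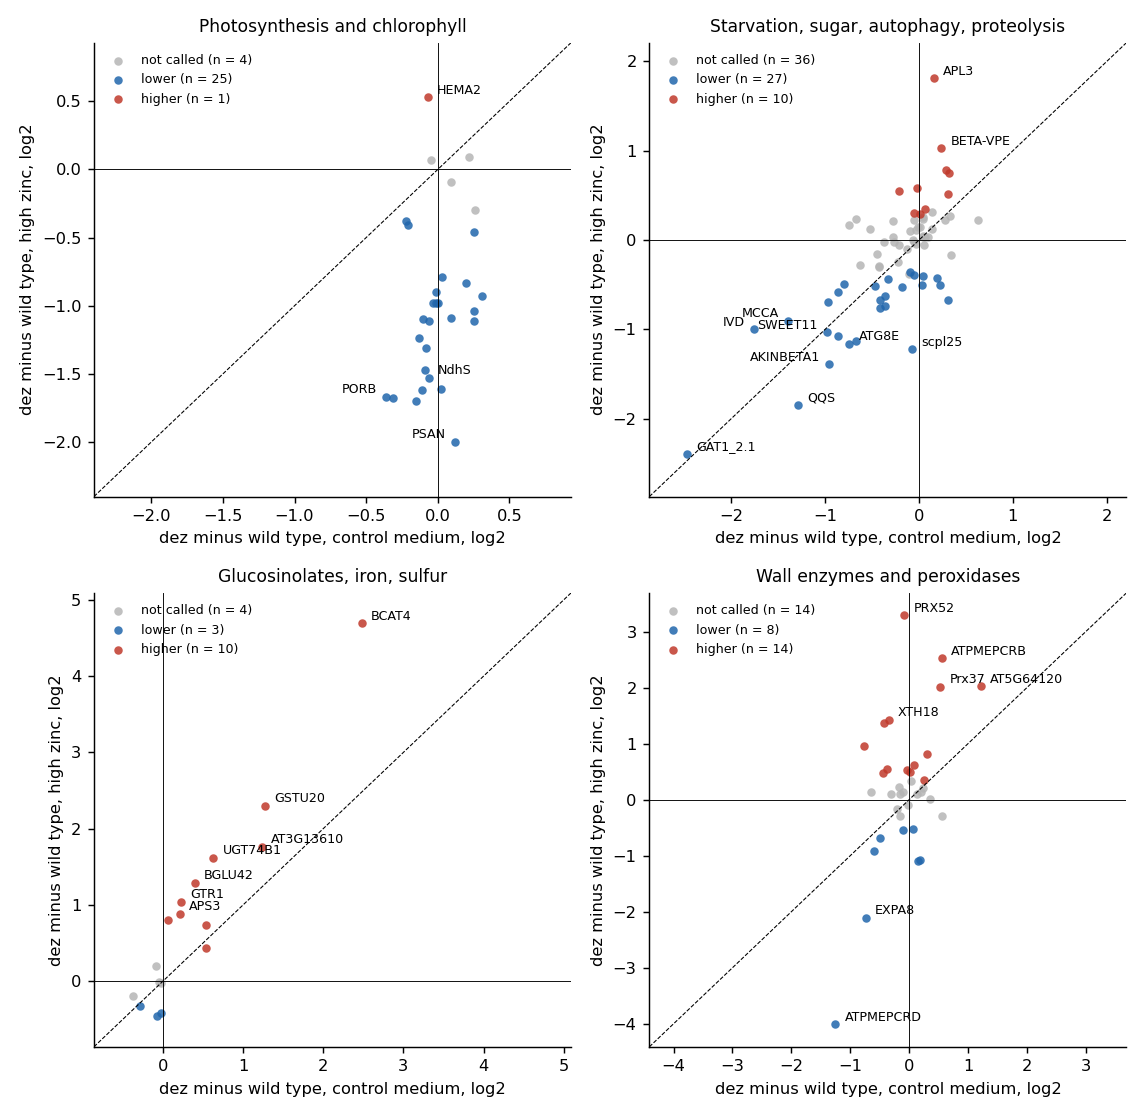
Difference between dez and wild type (log2 scale) on control medium, x axis, and high zinc, y axis, for tested genes of the named groups, coloured by the call on high zinc, with the dashed line of equal difference. Photosynthesis and chlorophyll genes lie near zero on the x axis, while GAT1_2.1 and QQS lie near the dashed line. Values are as deposited, and many of the small falls turn positive when scaled to the spikes.

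Most tested genes listed for aliphatic glucosinolates were higher in dez. Of 5 tested genes of this list 4 were higher and 1 lower, with a median of 1.04, and 3 were higher on control medium. The list includes the transporters GTR1 and GTR2, which are not enzymes of the aliphatic branch. Besides BCAT4, GSTU20, a glutathione transferase assigned to this pathway, read 111 and 109 in wild type and 639 and 572 in dez (difference 2.30 ± 0.15, limma adjusted p = 2.57e-06). The transporters GTR1 and GTR2, which load glucosinolates into the phloem, differed by 1.04 and 0.44. AOP1, an oxygenase-like gene, was lower, at -0.42, and turned to 0.04 under spike scaling. UGT74B1, the glucosyltransferase of the core structure, stood with the indolic list and read 103 and 81.1 against 320 and 307. The other 3 genes of that list lay between -0.33 and 0.20, and the fall of NAI1, a regulator of ER bodies, lost its call with the 3'-5' covariate or without any single high-zinc array and turned to 0.31 under spike scaling. Sulfur assimilation, which feeds the pathway, had 2 of 5 genes higher and 1 lower: APS3, an ATP sulfurylase, at 0.88 and SIR, sulfite reductase, at 0.73, against APS4 at -0.46, which turned to 0.33 under spike scaling.

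All 3 tested genes of the iron deficiency list were higher. AT3G13610 (F6'H1), which makes the coumarin scopoletin that roots release to mobilise iron, read 293 and 239 in wild type and 839 and 1042 in dez, a difference of 1.76 ± 0.15 (limma adjusted p = 1.19e-05). It was also higher by 1.23 on control medium. BGLU42, a beta-glucosidase that releases coumarins from their glucosides, read 76.5 and 55.6 against 173 and 193, and PYE, a regulator of the iron response, 24.6 and 32.2 against 60.7 and 61.2. Neither passed on control medium. Of 4 tested genes of zinc deficiency and metal transport none was higher. The regulator of the zinc deficiency response bZIP19 read 175 and 179 against 188 and 219 (limma adjusted p = 0.229). The metal transporter MTP11 and the metallothionein MT1C did not pass either, at 0.21 and 0.33. ZIP6, a member of the ZIP transporter family, lay at -0.48, a call lost with the 3'-5' covariate and a value of 0.14 under spike scaling.

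Cell wall genes moved in both directions. Of 23 tested expansin and xyloglucan genes 8 were higher and 5 lower, with a median of 0.13. XTH18, an enzyme that cuts and rejoins xyloglucan, read 295 and 255 in wild type and 767 and 763 in dez (difference 1.43 ± 0.11, limma adjusted p = 7.49e-06). Its neighbour in the family XTH19 was higher by 0.96 on high zinc and lower on control medium, at -0.76, with an interaction of 1.72 past its threshold. EXLA1, an expansin-like gene, differed by 1.37. EXPA8, an expansin, read 148 and 249 in wild type and 36.3 and 28.5 in dez, and XTH16 and EXPB1 differed by -1.10 and -1.07. Among 7 genes of pectin and wall sensing 3 were higher and 1, ATPMEPCRD, was lower. ATPMEPCRB, the pectin methylesterase PME41, read 183 and 187 in wild type and 1100 and 1167 in dez, a difference of 2.52 ± 0.13 (limma adjusted p = 4.47e-07). The calls of PMEPCRF at 0.54 and ARA12, a subtilase, at 0.61 were lost with the 3'-5' covariate. Of the 14 tested members of the TBR family 3 were higher and 3 lower, shares close to the 21.2% higher and 20.4% lower of all named genes, with TBL39 at 0.81 and TBL45 at -1.23. Under spike scaling 8 of the 14 were higher and none lower, beside 7513 higher and 253 lower of all 13648 probe sets. None of the 4 tested genes of cellulose and mannan synthesis passed, with COB, an anchored protein of anisotropic growth, at 591 and 592 against 534 and 653.

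Peroxidases and phenylpropanoid genes included some of the larger wall-related rises. Of 6 tested class III peroxidases 3 were higher and 2 lower. AT5G64120 (PRX71) was among the 5 brightest rises, at 1002 and 500 in wild type and 3270 and 2606 in dez (difference 2.02 ± 0.28, limma adjusted p = 0.000265), and Prx37 read 158 and 106 against 617 and 521. AT5G66390 (PRX72) and AT2G41480 (PRX25) lay at -0.92 and -0.68 and were lower on control medium too, and both lost the call under spike scaling, where PRX25 turned to 0.07. In the phenylpropanoid list 3 of 5 genes were higher and none lower. HCT, which makes the shikimate ester on the way to lignin, read 462 and 553 against 1145 and 1083, and CCR2, a cinnamoyl-CoA reductase, 29.1 and 26.8 against 80.7 and 89.95. Of 2 tested suberin, cutin and wax genes FACT, which makes alkyl caffeates, was lower, with a difference of -1.06, at 115 and 99.3 against 52.3 and 35.4, and the median of the pair turned from -0.59 to 0.03 under spike scaling. No gene symbol or synonym matched the lipid transfer protein or aquaporin lists. Members of these families under other names, such as a locus number, were not counted, so the families were not assessed.

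WRKY regulators were higher in dez on high zinc where they were called. Of 7 tested WRKY and NAC genes 4 were higher and none lower, with a median of 0.68, and none passed on control medium. WRKY53, a regulator of senescence, read 19.5 and 12.4 in wild type and 127 and 115 in dez (difference 2.11 ± 0.12, limma adjusted p = 7.91e-07). WRKY47, WRKY6 and WRKY22 differed by 1.43, 1.03 and 0.68, and all 4 had a positive interaction past its threshold. PDF1.4, a defensin-like gene, read 21.5 and 30.4 against 225 and 271, and PDF2.5 29.9 and 39.7 against 116 and 101. These led the 7 tested genes matched by symbol to the chitinase, PR and defensin list, of which 3 were higher and 1 lower. Genes of these classes named only by locus were not counted, so the list does not rank the whole class. Of 17 immunity and receptor genes 7 were higher and 4 lower. PUB23 and PUB22, ubiquitin ligases that damp immune signalling, differed by 1.59 and 0.60, and the calmodulin-like gene CML41 by 1.28. The jacalin lectins JAL22 and JAL33 were lower at 819 and 811 against 153 and 180 for JAL22, and 1507 and 1643 against 882 and 788 for JAL33. In the lectin list 3 of 4 genes were lower, with a median of -0.60 that turned to 0.20 under spike scaling. STZ (ZAT10), a zinc-finger repressor of stress responses, and bZIP44 were higher by 1.24 and 1.14, in a list of 29 regulators with 4 higher and 8 lower. The median of that list turned from -0.09 to 0.54 under spike scaling, beside 0.68 over all tested probe sets, and 13 were then higher and 1 lower.

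Enzymes that attach or remove sugars and glutathione were counted by family. Of 30 tested UDP-glycosyltransferases 12 were higher and 5 lower, with a median of 0.24. UGT87A2 read 148 and 126 in wild type and 593 and 574 in dez, and UGT72E1, which glucosylates lignin precursors, 232 and 237 against 593 and 657. Of 8 tested beta-glucosidases 5 were higher and none lower, with a median of 0.94. BGLU25 differed by 1.71, BGLU44 by 1.41 and BGLU15 by 1.13. Of 9 glutathione transferases 4 were higher and 2 lower, and GSTU25 read 501 and 335 against 1040 and 1003. GSTU18 was lower at 76.7 and 87.4 against 23.9 and 39.8. Of 8 cytochrome P450 genes 2 were higher and 1 lower, against 21.2% and 20.4% of all named genes.

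Redox genes differed in both directions, and mitochondrial respiration genes were higher where called. NDB2, an external NAD(P)H dehydrogenase of mitochondria, read 181 and 183 in wild type and 493 and 470 in dez (difference 1.33 ± 0.10, limma adjusted p = 6.11e-06). GRXC2, a glutaredoxin, read 801 and 798 against 1554 and 1373. The chloroplast proteins TAPX, the thylakoid ascorbate peroxidase, and TRXF2, a thioredoxin, differed by -1.25 and -0.88. In the whole redox list 11 of 30 were higher and 5 lower, beside 21.2% and 20.4% of all named genes. Of 9 genes of mitochondrial respiration 6 were higher and none lower, with a median of 0.45. SDH1-1 of succinate dehydrogenase read 236 and 142 against 557 and 582, and cytochrome c, CYTC-1, 1283 and 1335 against 1917 and 1953. Among chaperones 6 of 20 were higher and 3 lower, with the ER proteins ATERDJ3B at 1.19 and CRT1b, a calreticulin, at 1.08. With the 3'-5' covariate 3 of the 20 were higher and none lower. On control medium 4 were higher and 2 lower.

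**Figure D5:**
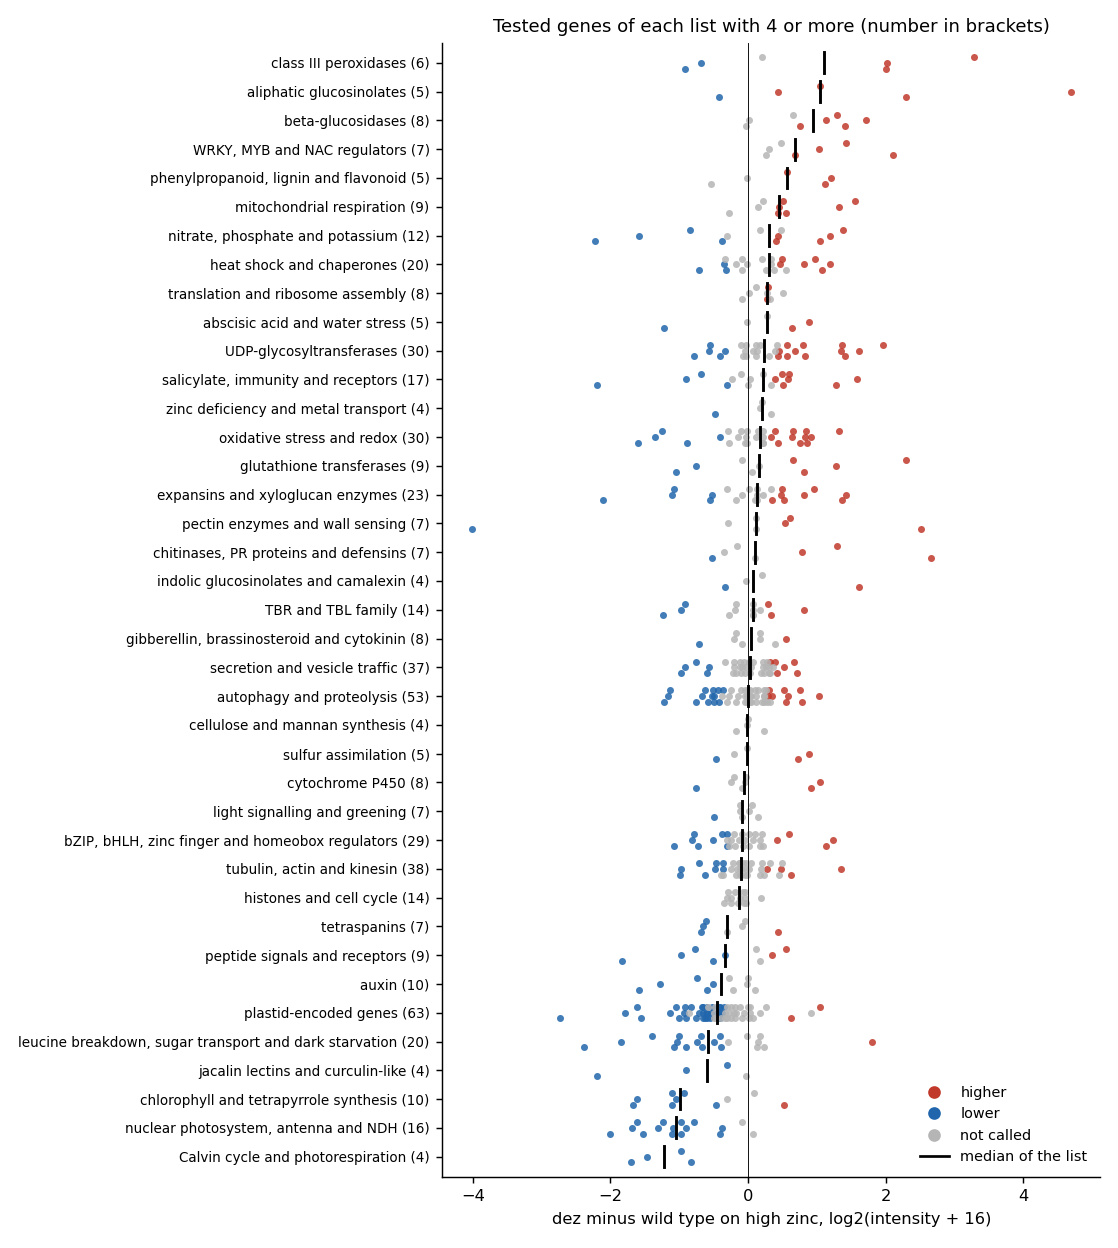
Difference between dez and wild type on high zinc (log2 scale) for the tested genes of each gene list with 4 or more, coloured by the call, with the list's median as a black bar. Medians run from -1.22 (Calvin cycle and photorespiration) to 1.1 (class III peroxidases). Values are as deposited: scaled to the spikes all points lie higher, and medians between -0.60 and 0 turn positive.

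Nutrient and peptide genes showed large single differences. OCT1, an organic cation and carnitine transporter, read 103 and 96.3 in wild type and 8.59 and 9.03 in dez on high zinc (difference -2.22 ± 0.11, limma adjusted p = 3.19e-07), and differed by -1.97 on control medium. AT2G26690 (NPF6.2), a nitrate transporter, read 491 and 536 against 138 and 187. CHX16, a cation exchanger, and AT1G68570 (NPF3.1) were higher by 1.38 and 1.19, in a list of 12 with 5 higher and 4 lower. STOMAGEN, a peptide that raises stomatal density, read 97.3 and 111 against 20.7 and 14.9, and RALFL24 differed by -0.97. The peptide list had 5 lower and 2 higher of 9, with a median of -0.34 that turned to 0.27 under spike scaling. Of 7 tetraspanins 3 were lower and 1, TET8, was higher, and under spike scaling the 3 lower ones turned to values between 0.02 and 0.07 and the median from -0.30 to 0.48.

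Further lists varied in their share of calls, beside 21.2% higher and 20.4% lower among all named genes. None of the 14 tested histone and cell cycle genes passed, with values between -0.35 and 0.19. The ethylene list had none of 2 genes past the threshold, jasmonate 1 of 3 (OPCL1 at 1.03), and gibberellin, brassinosteroid and cytokinin 2 of 8. Of 5 genes of abscisic acid and water stress 2 late embryogenesis abundant genes were higher and the dehydrin COR47 was lower, at 542 and 359 against 192 and 170. Of 8 genes of translation and ribosome assembly 2 passed, close to the threshold. PGY1, the only cytosolic ribosomal protein gene matched by symbol, lay at -0.14, and those named only by locus were not counted. Among cytoskeletal genes 8 of 38 were lower and 4 higher, with TUB5 and TUB6, both beta tubulins, at -0.71 and -0.48, which turned to 0.06 and 0.30 under spike scaling, while the cytoskeletal median went from -0.10 to 0.61. Of 37 secretion and vesicle genes 6 were higher and 5 lower, of 3 seed reserve genes 2 were lower, with a median of -0.41 that turned to 0.24 under spike scaling, and of 2 clock genes CCL lay at -1.21 on high zinc and -1.30 on control medium.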

How the data were processed

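RNA of whole dark-grown seedlings was hybridised to 8 ATH1 arrays, 1 per sample, in 4 groups of 2. The authors deposited a linear intensity for each probe set on each array, and MAS5 is named without a version per the submitters' processing notes. Their scaling and summary are steps not given in the sources used here, and no background level is stated. Array medians lay between 34.7 and 37.2 and upper quartiles between 101.5 and 104.7. Of 22810 probe sets 64 controls were left out, deposited intensities were taken to log2(intensity + 16), and the upper 60% by mean over the 8 arrays were tested.

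A model with 1 mean per group was fitted over the 8 arrays with limma 3.58.1 (R 4.3.3; lmFit and contrasts.fit, then eBayes using a trend, 4 residual and 6.28 prior degrees of freedom), two-sided, with Benjamini-Hochberg adjustment over 13648 probe sets and a threshold of 0.05. Replicate numbers are not stated to pair samples, and deviations of same-numbered arrays correlated between -0.363 and 0.375 (-0.104 between the high-zinc groups), so no block was used. Probe sets of 1 gene (13513, of which 13436 matched the RefSeq annotation of TAIR10.1) were named, 53.4% of those tested. Probe sets of several genes (503) or not listed (8730) were not named. Of several probe sets of a gene the brightest was used, and a second one of AT2G31110 gave another call.

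The genes named are the 15 largest rises and falls whose arrays did not overlap, the 5 smallest adjusted p per list of 48 gene lists (formed by symbol, 575 genes tested), the 6 largest in each direction by interaction and among genes called on both media, the 5 brightest in each direction, and TBR. Further members are given by range, and gene families were counted by symbol. Members and lists were chosen with earlier results of these data known. Alternatives were quantile normalization, median centring, poly-A spike scaling of the linear intensities, pseudocounts of 1 and 64, other filters, other priors, a replicate block, a 3'-5' covariate, single arrays left out and other thresholds.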

Additional observations from a re-analysis of the deposited data

Results flagged for a closer look

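The genotype difference was unlike on the 2 media for 2653 probe sets, by limma's interaction of genotype and zinc fitted over all 8 arrays. The 6 named genes with the largest positive interaction on the log2 scale were AT4G33720 (4.10), AT4G12500 (3.79), AT5G55050 (3.68), AT4G22470 (3.65), PRX52 (3.36) and AT2G43620 (3.35). The 6 with the largest negative interaction were AT5G48490 (-3.59), AT1G09750 (-3.38), AT5G44440 (-3.03), ATPMEPCRD (-2.76), AT2G23540 (-2.40) and AT3G47070 (-2.40). AT2G23540 was called in opposite directions: it read 427 and 322 in wild type and 139 and 216 in dez on high zinc, and 111 and 148 against 322 and 391.9 on control medium. Its differences were -1.03 ± 0.21 and 1.37, with limma adjusted p = 0.00271 and 0.00303, and the high-zinc call was lost under poly-A spike scaling.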

How the results depend on the processing

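For the count of probe sets called on high zinc (5846), a threshold of 0.01 left 3848, a threshold of 0.05 with a 2-fold minimum left 1162, and the 3'-5' covariate gave 3445, of which 3296 were among the 5846. Leaving out single arrays gave 4225 to 6029, and the 4 high-zinc arrays alone 5269. The interaction count (2653) was 1412 and 941 at those thresholds, 545 under poly-A spike scaling (83.5% positive against 45.6%), and 1621 to 2791 with single arrays left out, the lowest without dez control replicate 2. As the replicate numbers are not stated to pair samples, the replicate block is only an alternative. It gave 5564 and 2464 calls. Under spike scaling 21 named falls turned positive, to 0.02 (TET2 and RALFL34), 0.04 (AOP1 and TET5), 0.06 (TUB5), 0.07 (AT2G41480 and TET7), 0.10 (psbM), 0.14 (ZIP6), 0.17 (WES1), 0.18 (cemA), 0.19 (HAT2), 0.24 (SDP1), 0.27 (LCR68 and RALFL32), 0.30 (TUB6), 0.31 (NAI1), 0.33 (APS4), 0.40 (petB), 0.46 (psaB) and 0.50 (JAL34). No other alternative turned the sign of a named call. Of 191 named calls, 85 were lost under at least 1 alternative. The cause was not tested, and the amounts of spikes added were not given in the sources used here. Without a stated background, absolute levels of dim genes cannot be read.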

Other observations

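Of the 5 brightest named rises on high zinc, 3 differed little, while AT5G64120 and AT2G38870 differed by 2.02 and 2.92. cICDH, the cytosolic isocitrate dehydrogenase, read 2155 and 2140 in wild type and 3330 and 2658 in dez on high zinc (difference 0.47 ± 0.11), a call lost with the 3'-5' covariate and without dez high-zinc replicate 1. The cytosolic glycolytic enzymes TPI and GAPC2 differed by 0.49 ± 0.10 and 0.31 ± 0.09, with limma adjusted p = 0.00202 and 0.0212, and the call of GAPC2 was lost with that covariate. TPI read 1542 and 1503 against 2010 and 2304 on high zinc and was also higher on control medium, by 0.38.

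Membrane traffic genes differed by family. Of 9 tested subunits of the ESCRT-III complex, which sorts membrane proteins into vacuolar vesicles, 4 were higher and none lower, with a median of 0.32. VPS2.1, at 0.71, read 230 and 169 in wild type and 318 and 348 in dez, a call lost with the 3'-5' covariate. Of 10 members of the prenylated RAB acceptor family PRA1 4 were lower and none higher, with a median of -0.28 that turned to 0.42 under poly-A spike scaling. PRA1.F1 and PRA8 differed by -0.97 and -0.91. These families were counted after their values were seen.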
